A study of Mus musculus and Ictidomys tridecemlineatus with 36 samples.

Results

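The collagen genes encode the chains of the collagen triple helices, and the set described here holds every autosomal protein-coding gene of GENCODE M21 whose symbol has the form *Col*, a number, *a* and a number. The rule gave 42 of 20807 autosomal protein-coding genes, and 2 further collagen genes on the X chromosome, *Col4a5* and *Col4a6*, were left out by it. Peaks came from CUT&RUN on mouse retina at postnatal day 2, a stage at which late progenitors are still giving rise to rods, bipolar cells and Müller glia. CUT&RUN releases and sequences the DNA around a bound antibody, and it was run on nuclei of snap-frozen retina for 3 histone marks, H3K4me3, H3K27ac and H3K4me1, and for the transcription factors Otx2 and Neurod1, with IgG as the control. Each of the 2 biological replicates was a pool of retinas from 3 mice, and the strain of these animals was not given in the sources used here. Otx2 was assayed in 8 libraries, Neurod1 in 4 and every histone mark, like the IgG control, in 2, and for Otx2 an R&D Systems and an Atlas Antibodies antibody were combined. All samples were of this age and tissue with no treatment or genotype named in the labels, so the comparisons below are between targets and between genes. The 13-lined ground squirrel (13LGS) lists of the same series were not used here.

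Each target had 1 peak list, called jointly over its libraries, so every value below is a single pooled value with no spread between replicates, and the read depth behind it is unknown. A peak's value is its fold enrichment over IgG at its summit. The lists held 14069 peaks for H3K4me3, 62930 for H3K27ac, 135798 for H3K4me1, 29115 for Otx2 and 4744 for Neurod1. A gene without a peak is a gene at which none passed the q-value threshold of 0.05, which does not show that the mark was absent. Whole retina was used, so fewer cells of a type and less signal per cell cannot be told apart.

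Collagens are the main proteins of the extracellular matrix. Fibrillar chains build the fibrils of connective tissue, cartilage and the vitreous, FACIT chains sit on the surface of such fibrils, and type IV chains form the sheets of basement membranes, including those of retinal vessels and of the inner limiting membrane. In the retina and its vessels these proteins are known mainly from endothelial and mural cells, glia and the cells that secrete vitreous, and the beaded filament, transmembrane and multiplexin chains have roles in cell anchorage and at basement membranes. H3K4me3 marks active or poised promoters, H3K27ac marks active promoters and enhancers, and H3K4me1 marks enhancers and the flanks of promoters. Otx2 and Neurod1 are factors of the photoreceptor lineage.

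The tissue label was checked with marker genes, counting an H3K4me3 peak within 1 kb of any annotated transcription start site (TSS). Of all genes, 57.1% had such a peak. Of 10 retinal progenitor markers, 10 had such a peak, as did 7 of 8 photoreceptor precursor markers. It was also at 10 of 11 markers of amacrine, horizontal and ganglion cells. Markers of the other cell types had such a peak less often. Such a peak was present at 3 of 10 endothelial markers (*Egfl7*, *Kdr* and *Flt1*), at 1 of 8 mural markers (*Notch3*), at 2 of 8 fibroblast markers (*Pdgfra* and *Foxc1*), at 0 of 5 astrocyte markers, at 3 of 8 pigment epithelium markers and at 0 of 8 microglia markers. H3K4me1 was within 1 kb of a start at 9 of 10 endothelial, 6 of 8 mural and 7 of 8 fibroblast markers. It was at 4 of 5 astrocyte and 1 of 8 microglia markers, beside 64.8% of all genes. H3K27ac was there at 9 of 10 progenitor and 7 of 8 precursor markers, beside 23.1% of all genes. It was at 0 of 11 amacrine, horizontal and ganglion cell markers. The H3K27ac counts were 1 of 10 for endothelium, 1 of 8 for mural cells and 0 of 8 for fibroblasts. They were 1 of 5 for astrocytes, 2 of 8 for pigment epithelium and 0 of 8 for microglia. *Pecam1*, *Cdh5*, *Pdgfrb*, *Dcn* and *Gfap* were among the markers with no H3K4me3 peak, while the 6 markers named above had one. The part that the abundance of these cells had in the collagen values was not tested.

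Counted by gene, collagen genes carried H3K4me3 and Otx2 at a start less often, and H3K4me1 more often, than all genes. An H3K4me3 peak lay within 1 kb of a start in 15 of 42 members, or 35.7%, beside 57.1% of all genes. H3K4me1 was there in 33 of 42 (78.6%, beside 64.8% of all genes). H3K27ac was there in 10 of 42, and its 23.8% was close to the 23.1% of all genes. Otx2 was there in 9 of 42 (21.4%, beside 52.2%). Neurod1 was at the starts of 0 of 42 members, where it was present at 6.00% of all genes. Where only peaks whose −log10 q reached 5 were counted, H3K4me3 was at the starts of 11 members (26.2%, beside 55.1% of all genes). *Col5a2*, *Col9a2*, *Col11a2* and *Col26a1* were not among them. Under this limit Otx2 was at the starts of *Col2a1* alone (2.38% of members, beside 43.0% of all genes). The strongest Otx2 peak at a *Col2a1* start, 3.11 with a −log10 q of 5.03, was at an internal start.

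Members had a median of 4 annotated starts, beside 3 for all genes, and the order of the H3K4me1 shares depended on how starts were counted. With the 5′ end of each gene alone, H3K4me1 was at 69.0% of members and 58.7% of all genes. Counted by start, it was within 1 kb of 93 of the 193 annotated starts of members (48.2%), beside 55.2% of the 90310 starts of all genes. By the same count H3K4me3 was at 17.1% of member starts and 47.9% of all starts, H3K27ac at 10.4% and 18.1%, and Otx2 at 9.33% and 43.2%.

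**Figure D1:**
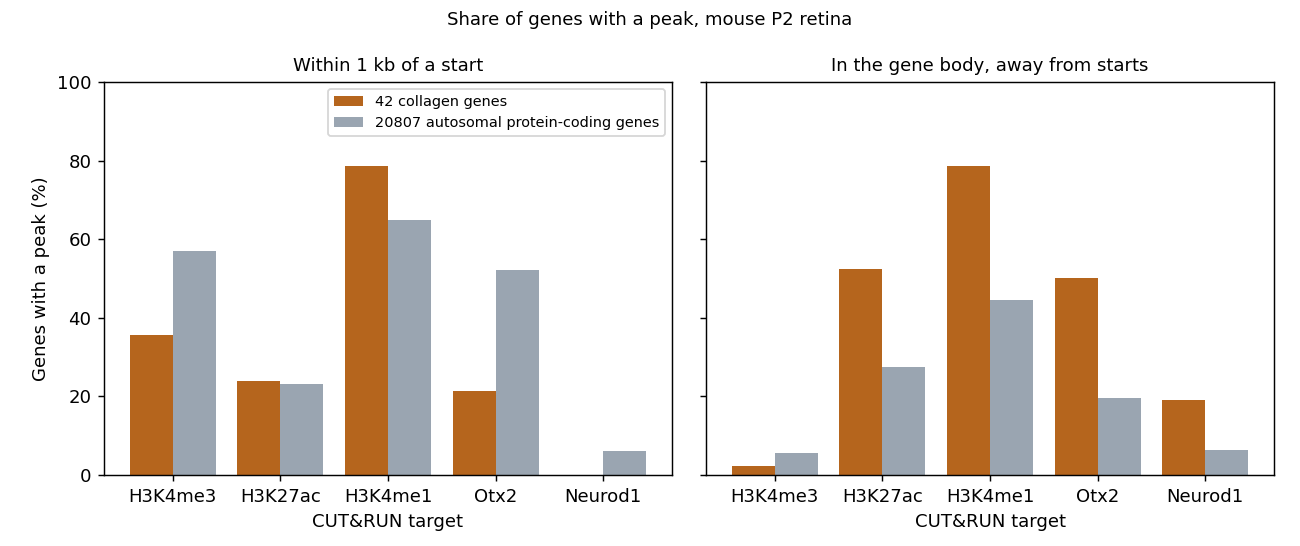
Bars give the percent of genes with at least 1 peak of each CUT&RUN target, within 1 kb of a start (left) and in the gene body away from starts (right), for the 42 collagen genes (brown) and all 20807 autosomal protein-coding genes (grey). At starts, H3K4me3 was at 35.7% of collagen genes and 57.1% of all genes and Otx2 at 21.4% and 52.2%, and in gene bodies the brown bar was the higher one for each target other than H3K4me3.

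The marks combined in different ways. H3K4me1 without H3K4me3 or H3K27ac was the most frequent state, at 16 of 42 members (38.1%, beside 10.7% of all genes). They were *Col1a1*, *Col1a2*, *Col5a3* and *Col24a1* among the fibrillar chains, *Col4a3*, *Col4a4* and *Col8a1* among the network-forming chains, *Col6a2*, *Col12a1*, *Col14a1*, *Col16a1*, *Col19a1*, *Col22a1*, *Col13a1*, *Col17a1* and *Col28a1*. H3K4me3 and H3K27ac were both within 1 kb of some start in 7 members (16.7%, beside 21.2%), and in 4 of them, *Col2a1*, *Col9a1*, *Col9a3* and *Col23a1*, within 1 kb of the same start (9.52%, beside 17.0% of all genes). H3K27ac without H3K4me3 was found at 3 members, *Col20a1*, *Col10a1* and *Col6a1* (7.14%, beside 1.85%). No peak of any of the 5 targets was within 1 kb of a start in 8 members (19.0%, beside 30.1% of all genes), namely *Col3a1*, *Col6a3*, *Col6a4*, *Col6a5*, *Col6a6*, *Col7a1*, *Col8a2* and *Col15a1*. Of these, *Col6a4* and *Col7a1*, the latter the chain of the anchoring fibrils of skin, had no peak in the gene body either.

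**Figure D2:**
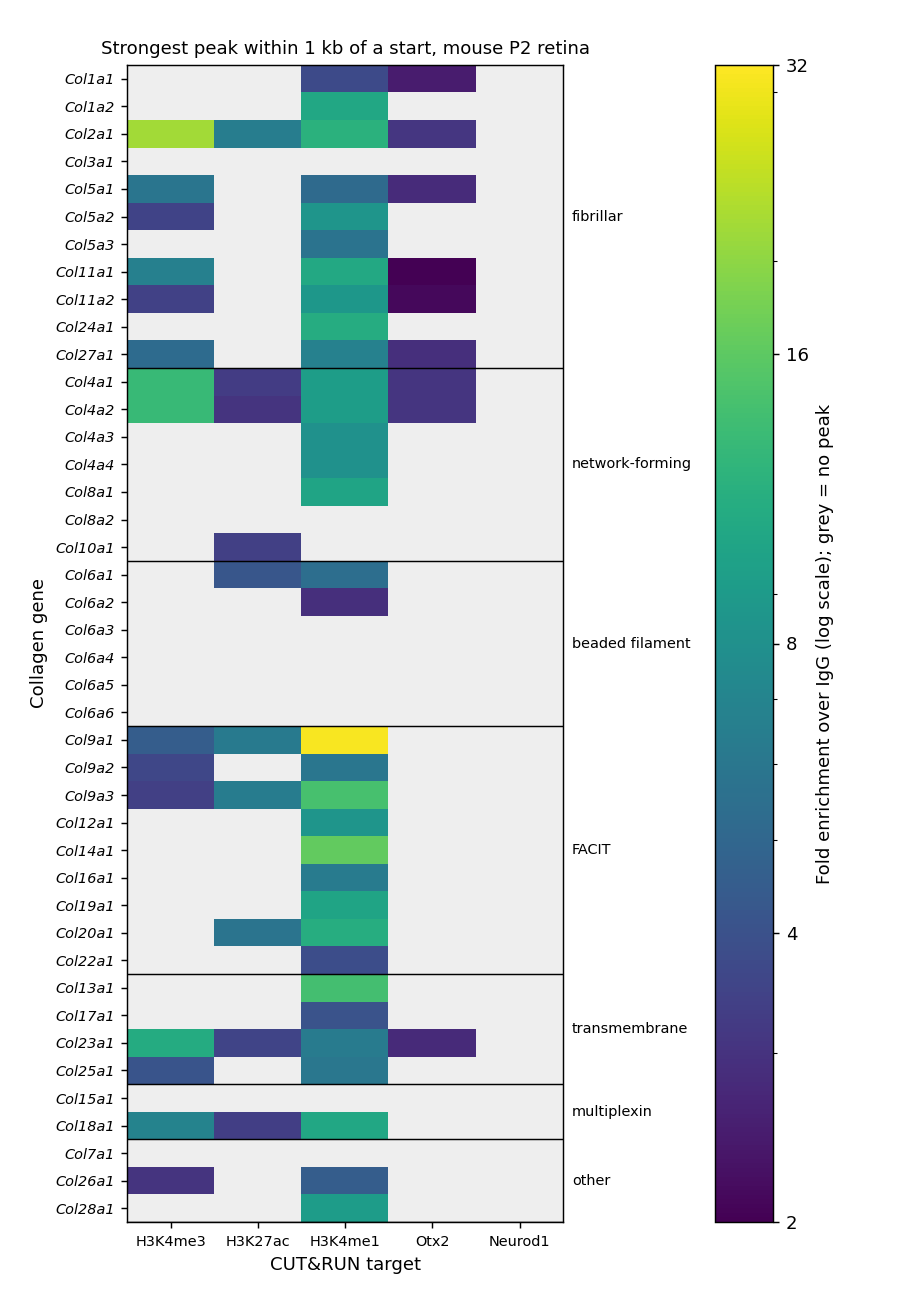
Each row is a collagen gene, grouped by role, each column a CUT&RUN target, and the colour is the fold enrichment over IgG (log scale) of the strongest peak within 1 kb of any start, with grey where there was none. The H3K4me1 column is filled for 33 of 42 genes, the Neurod1 column is empty, and 4 of the 6 beaded filament genes have no coloured cell.

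Where H3K4me3 was present, it was low. The strongest peak at a start had a median fold enrichment of 5.3 over the 15 members (range 3.04 to 21.7), beside 17.6 over the 11872 genes with such a peak, whose middle 50% lay between 10.0 and 26.9. Only *Col2a1* was above the median of all genes. Its peak, with a fold enrichment of 21.7, was at or above those of 62.5% of genes with a peak. *Col4a1* and *Col4a2* shared a peak of 13.0 and *Col23a1* had 11.0, higher than 34.7% and 28.4% of genes or equal to them. The other 11 were between 3.04 for *Col26a1* and 6.94 for *Col18a1*. Because of the shared peak the 15 members had 14 distinct peaks. By the widest H3K4me3 peak of each gene at a start, members were also narrower, with a median of 1220 bp beside 1590 bp.

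**Figure D3:**
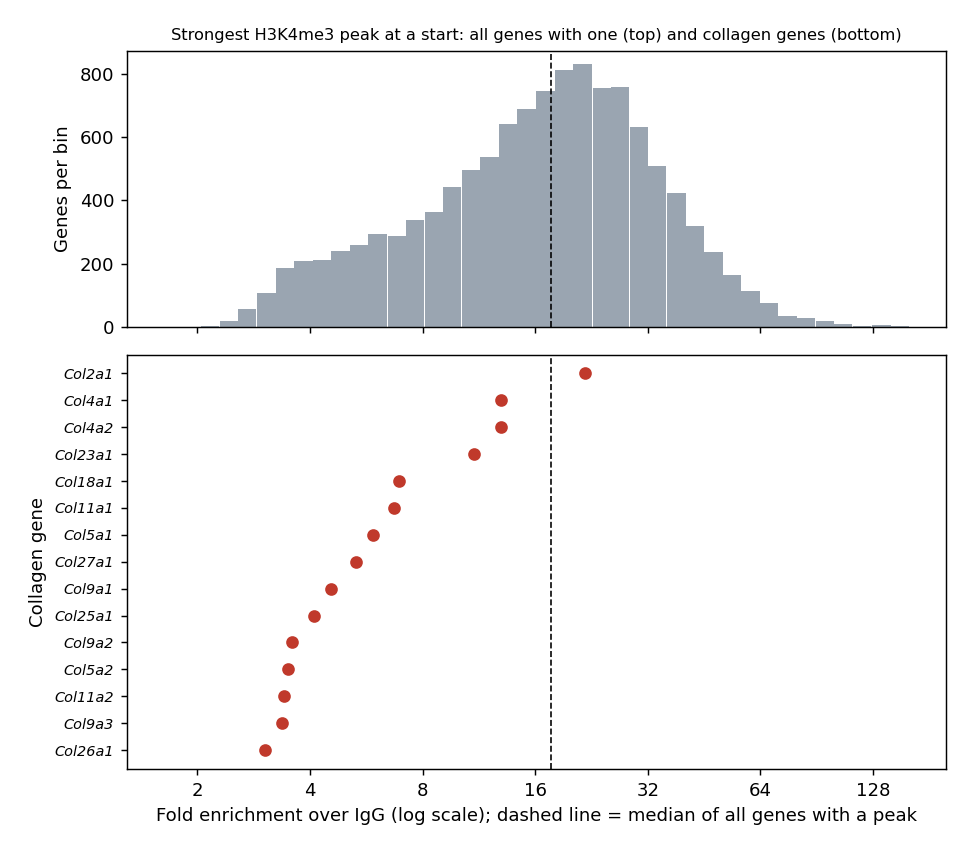
The upper panel is a histogram of the strongest H3K4me3 peak at a start for the 11872 genes with one, and the lower panel shows the 15 collagen genes with one, both against fold enrichment over IgG on a log scale. The dashed line is the median of all such genes, 17.6, and *Col2a1* is the only collagen gene to its right.

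H3K4me1 differed from H3K4me3 in this respect. At starts its strongest peaks had a median fold enrichment of 8.5 in members and 5.63 in all genes. The widest peak of each gene at a start had a median width of 2480 bp in members and 1590 bp in all genes. It also lay over the start base itself more often. Of the 33 member starts with both H3K4me3 and H3K4me1 within 1 kb, 24 (72.7%) were covered by an H3K4me1 peak, beside 30.6% of 37758 such starts of all genes. Without H3K4me3 nearby, 47 of 60 member starts (78.3%) were covered, beside 63.4% of 12071. Starts of 1 gene often lie within the same peak, so they are not independent. For H3K27ac the median fold enrichment at starts was 3.87 in members and 3.57 in all genes, and for Otx2 it was 2.82 and 3.98.

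Of 11 fibrillar genes, 6 had H3K4me3 within 1 kb of a start, 10 had H3K4me1, 6 had Otx2 and only *Col2a1* had H3K27ac. The shares of all genes were 57.1% for H3K4me3, 64.8% for H3K4me1, 52.2% for Otx2 and 23.1% for H3K27ac. They also stand beside the counts of the groups below. Under the stricter limit on Otx2 peaks the count of 6 with Otx2 was 1, *Col2a1*. Under the same limit on H3K4me3 peaks, *Col5a2* and *Col11a2* had no such peak at a start. *Col2a1*, the chain of cartilage and vitreous fibrils (chr15:97975602-98004695, minus strand, GRCm38), had an H3K4me3 peak of 3770 bp over its first start. An H3K27ac peak there had a fold enrichment of 2.14 over 1121 bp, and an Otx2 peak had 2.32. Its strongest H3K27ac peak was an internal one of 6.51 over 5406 bp, with its summit 11871 bp from the gene start, and inside it lay Otx2 peaks of 4.22 and 3.11. The latter was within 1 kb of an internal start annotated as a processed transcript, which is why it counted as a peak at a start.

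*Col11a1* and *Col11a2*, whose chains join type II collagen in fibrils, had H3K4me3 at 6.71 and 3.42 and Otx2 at 2.01 and 2.13. *Col5a1* and *Col5a2*, known for limiting fibril width, had H3K4me3 at 5.89 and 3.5, and of the pair *Col5a1* had Otx2 (2.82). The *Col5a1* Otx2 and H3K4me3 peaks were also within 1 kb of a start of another gene, *2810430I11Rik*. *Col27a1* had H3K4me3 at 5.3 and Otx2 at 2.92. The main chains of bone and skin differed from these. *Col1a1* had Otx2 (2.46) and H3K4me1 (3.71) but no H3K4me3, *Col1a2* had H3K4me1 alone (10.5), and *Col3a1* had no peak at a start. Each Otx2 peak at a fibrillar start other than that of *Col1a1* and the internal one of *Col2a1* overlapped an H3K4me3 peak.

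The type IV genes lie in head-to-head pairs, and the pairs differed. The starts of *Col4a1* and *Col4a2*, which encode the chains found in nearly all basement membranes, are on opposite strands of chromosome 8 at 11312826 and 11312805, so that the annotated transcripts overlap there. They shared an H3K4me3 peak of 2084 bp (13.0), an H3K4me1 peak of 3064 bp (9.41) and an Otx2 peak of 1078 bp (3.08). H3K27ac was not called at this shared start. In both genes the H3K27ac peaks within 1 kb of a start, 3.28 at the highest in *Col4a1* and 3.04 in *Col4a2*, were at internal starts of non-coding transcripts, 80387 and 92103 bp from the gene start. *Col4a3* and *Col4a4*, the chains of kidney glomerular and some other basement membranes, shared 1 H3K4me1 peak of 1612 bp (8.17) at their facing starts and had no H3K4me3, H3K27ac or Otx2 there.

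Among the other network-forming genes, *Col8a1* had H3K4me1 at a start, *Col8a2* had no peak there, and *Col10a1*, known from hypertrophic cartilage, had H3K27ac (3.4) with neither methylation mark. *Col10a1* lies within the annotated interval of *Nt5dc1*. The beaded filament genes were the emptiest group. Of 6, none had H3K4me3 or Otx2 at a start, 2 had H3K4me1 and 4 had no peak, beside 30.1% of all genes with none. *Col6a1* was the exception, with H3K27ac (4.21) and H3K4me1 (5.44) over its first start.

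All 9 FACIT genes had H3K4me1 at a start (beside 64.8% of all genes), and none had Otx2 there (beside 52.2%). H3K4me3 was confined to the 3 type IX genes among them, whose chains coat type II fibrils, at 4.55 for *Col9a1*, 3.59 for *Col9a2* and 3.37 for *Col9a3*. The *Col9a2* peak had a −log10 q of 4.83, below the stricter limit of 5. H3K27ac peaks reached to within 1 kb of a start in *Col9a1* (6.23), *Col9a3* and *Col20a1* (5.82). In *Col9a3* the peak of 6.41 had its summit 1466 bp from the nearest start, annotated as a retained intron, and the other peak was 2.31. The highest H3K4me1 value of a peak counted at a start was 31.1, in *Col9a1*, but its summit was 3063 bp from the nearest start, that of a processed transcript. *Col9a1* had a further one of 23.8, and *Col14a1*, a chain of tendon and skin, had 16.4. Of the 4 transmembrane genes, *Col23a1* and *Col25a1* had H3K4me3, at 11.0 and 4.1, and *Col23a1* also had Otx2 (2.78) and H3K27ac (3.54). The *Col25a1* peak was at an internal start 49390 bp from the gene start, which itself had no peak within 1 kb. A processed transcript begins at that gene start, and 4 annotated transcripts begin within 1 kb of the peak. Of the multiplexins, *Col18a1*, whose C-terminal fragment is endostatin, had H3K4me3 (6.94) and *Col15a1* had no peak at a start. *Col26a1* had H3K4me3 (3.04), the weakest among the members.

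*Col9a1* and *Col2a1* show how differently the marked starts were built, and their upstream bases are printed for that reason. *Col9a1* (chr1:24177610-24252684, plus strand) has a first coding start with no peak of any target within 1 kb. Its next coding start, 17577 bp downstream at 24195187, had H3K4me3 (1349 bp), H3K27ac (6.23 over 4013 bp) and H3K4me1 (23.8 over 8217 bp). The use of a long and a short form of this chain from separate starts is known from cartilage and eye. The 250 bases before each start, read from the GRCm38 genome on the strand of the gene, are given with CpG dinucleotides in capitals. There are 0 before either *Col9a1* start and 19 before the *Col2a1* start.
*Col9a1*, first start, chr1:24177360-24177609: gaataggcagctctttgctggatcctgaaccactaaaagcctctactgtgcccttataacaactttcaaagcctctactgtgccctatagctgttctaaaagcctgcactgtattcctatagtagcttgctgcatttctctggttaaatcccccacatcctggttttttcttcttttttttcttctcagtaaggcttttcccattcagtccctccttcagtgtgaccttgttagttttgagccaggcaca
*Col9a1*, internal start, chr1:24194937-24195186: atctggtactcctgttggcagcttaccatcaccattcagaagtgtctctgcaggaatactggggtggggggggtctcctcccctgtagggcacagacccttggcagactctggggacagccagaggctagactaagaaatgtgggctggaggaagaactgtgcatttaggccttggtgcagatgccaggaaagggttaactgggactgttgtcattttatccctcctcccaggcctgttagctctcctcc
*Col2a1*, first start, chr15:98004696-98004945: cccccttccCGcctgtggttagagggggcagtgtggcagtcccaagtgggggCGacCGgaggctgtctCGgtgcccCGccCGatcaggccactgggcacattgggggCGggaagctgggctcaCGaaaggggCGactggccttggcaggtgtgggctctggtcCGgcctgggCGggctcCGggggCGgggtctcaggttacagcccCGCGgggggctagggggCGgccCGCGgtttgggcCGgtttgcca

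The observed over expected CpG ratio was computed over 300 bases at each start, 250 before it and 50 from it on, and the highest value of a gene was taken, for genes with H3K4me3 over the starts within 1 kb of that mark. Its median was 0.737 in the 15 members with H3K4me3 (range 0.102 to 0.936) and 0.552 in the 27 without (0.213 to 0.878), and the ranges overlapped. For all genes the medians were 0.877 with H3K4me3 and 0.273 without. A ratio of at least 0.6 was reached by 66.7% of members with H3K4me3, beside 88.6% of all genes with it, and by 33.3% of members without, beside 16.3%. *Col12a1* (0.878), *Col13a1* (0.837) and *Col8a2* (0.832) had CpG-rich starts without H3K4me3, and *Col5a2* (0.102), *Col9a1* (0.15) and *Col11a2* (0.39) had H3K4me3 with few CpG dinucleotides. *Col5a2* and *Col11a2* had no H3K4me3 peak at a start whose −log10 q reached 5.

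Inside the genes, away from their starts, peaks were frequent. H3K27ac was found in the body of 22 of 42 members (52.4%, beside 27.6% of all genes), H3K4me1 in 33 (78.6%, beside 44.6%), Otx2 in 21 of the 42 (beside 19.5% of all genes) and Neurod1 in 8 (19.0%, beside 6.33%). H3K4me3 was found in the body of *Col26a1* only (2.38%, beside 5.68%). Collagen genes are long, with a median of 111 kb beside 17.6 kb, and 64.3% of members but 23.0% of all genes reached 50 kb. Among genes of at least 50 kb the gap was smaller or turned. H3K27ac was in the body of 59.3% of 27 members and 72.6% of 4787 genes, H3K4me1 in 92.6% and 89.1%, Otx2 in 63.0% and 49.8%, and Neurod1 in 25.9% and 18.1%. Summed over genes, members had 2.54 H3K27ac peaks per 100 kb beside 3.63, 5.16 H3K4me1 peaks beside 6.14, 0.764 Otx2 peaks beside 0.851 and 0.207 Neurod1 peaks beside 0.199. In these sums the histone peaks were sparser than in all genes. The median gene gave the other order, 0.668 H3K27ac and 3.96 H3K4me1 peaks per 100 kb in members beside 0 for both in all genes. That 0 follows from the shares above, since most genes had no body peak of the mark. Summed over genes of at least 50 kb, members had 2.53 H3K27ac peaks per 100 kb beside 4.13, and 5.29 H3K4me1 peaks beside 6.76.

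These body peaks were unevenly spread. *Col18a1* had 21 H3K27ac peaks in 114 kb, or 18.4 per 100 kb, a density that 2.16% of all genes reached. *Col6a1* (17.3), *Col10a1* (14.1), *Col9a2* (12.5) and *Col9a1* (9.32) followed, on 3, 1, 2 and 7 peaks, so that the values of the short genes rest on very few. For H3K4me1 *Col23a1* led with 44 peaks in 294 kb, or 15.0 per 100 kb, followed by *Col18a1* (12.2), *Col1a1* (11.9), *Col4a2* (11.7) and *Col16a1* (11.7). A body H3K27ac peak was absent from 20 of 42 members, among them *Col1a1* and *Col16a1*. Nearly all summits were intronic, 114 of 123 for H3K27ac and 243 of 250 for H3K4me1. The share for body peaks of all genes was not computed, so this is not shown to be particular to collagen genes.

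**Figure D4:**
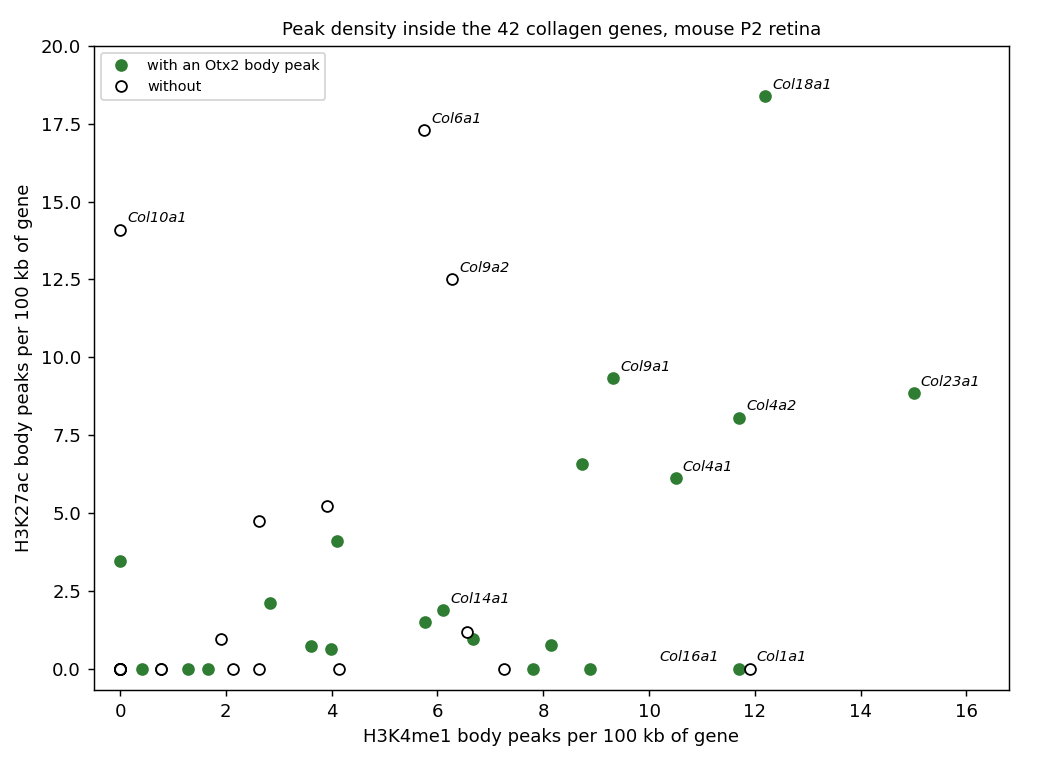
Each point is a collagen gene, placed by its H3K4me1 (horizontal axis) and H3K27ac (vertical axis) body peaks per 100 kb of gene, and filled green where the body also held an Otx2 peak. *Col18a1* is highest on the H3K27ac axis (18.4) and *Col23a1* on the H3K4me1 axis (15.0), while *Col1a1* and *Col16a1* lie at 0 H3K27ac with over 11 H3K4me1 peaks per 100 kb.

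Otx2 had 37 body peaks in 21 members, with fold enrichments of 2.17 to 7.89. H3K27ac overlapped 17 of them (45.9%, beside 46.3% of Otx2 body peaks of all genes), H3K4me1 without the other histone marks overlapped 17 (45.9%, beside 37.0%), and 3 had no histone peak (8.11%, beside 8.73%). The median fold enrichment was 3.38, beside 3.46. Neurod1 had 10 body peaks in 8 members, *Col4a2*, *Col6a3*, *Col13a1*, *Col15a1*, *Col16a1*, *Col17a1*, *Col18a1* and *Col26a1*. Otx2 overlapped 7 of the 10 (70.0%, beside 75.7%), and the median fold enrichment was 3.22, beside 3.9.

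After *Col6a3*, the genes with the highest body Otx2 values were *Col18a1* (6.85) and *Col4a2* (6.67, with a further peak of 5.56). *Col23a1* had 4 body Otx2 peaks with a highest value of 5.69, *Col9a1* had 4 with a highest value of 5.44, and *Col26a1* had 2 with a highest value of 5.19. The other members with body Otx2 peaks had highest values between 2.53 in *Col15a1* and 4.55 in *Col22a1*. They were *Col2a1*, *Col5a3*, *Col4a1*, *Col4a3*, *Col4a4*, *Col9a3*, *Col12a1*, *Col14a1*, *Col16a1*, *Col19a1*, *Col22a1*, *Col13a1*, *Col17a1*, *Col25a1* and *Col15a1*. All 9 FACIT genes except *Col9a2* and *Col20a1* were among the 21, as were all 4 transmembrane genes and both multiplexins. Only *Col2a1* and *Col5a3* of the 11 fibrillar genes were. Beside these counts stand 19.5% of all genes, and 49.8% of all genes of at least 50 kb, with an Otx2 body peak. With only peaks whose −log10 q reached 5, 16 members had one (38.1%, beside 14.2% of all genes). *Col9a3*, *Col12a1*, *Col14a1*, *Col13a1* and *Col15a1* then had none.

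**Figure D5:**
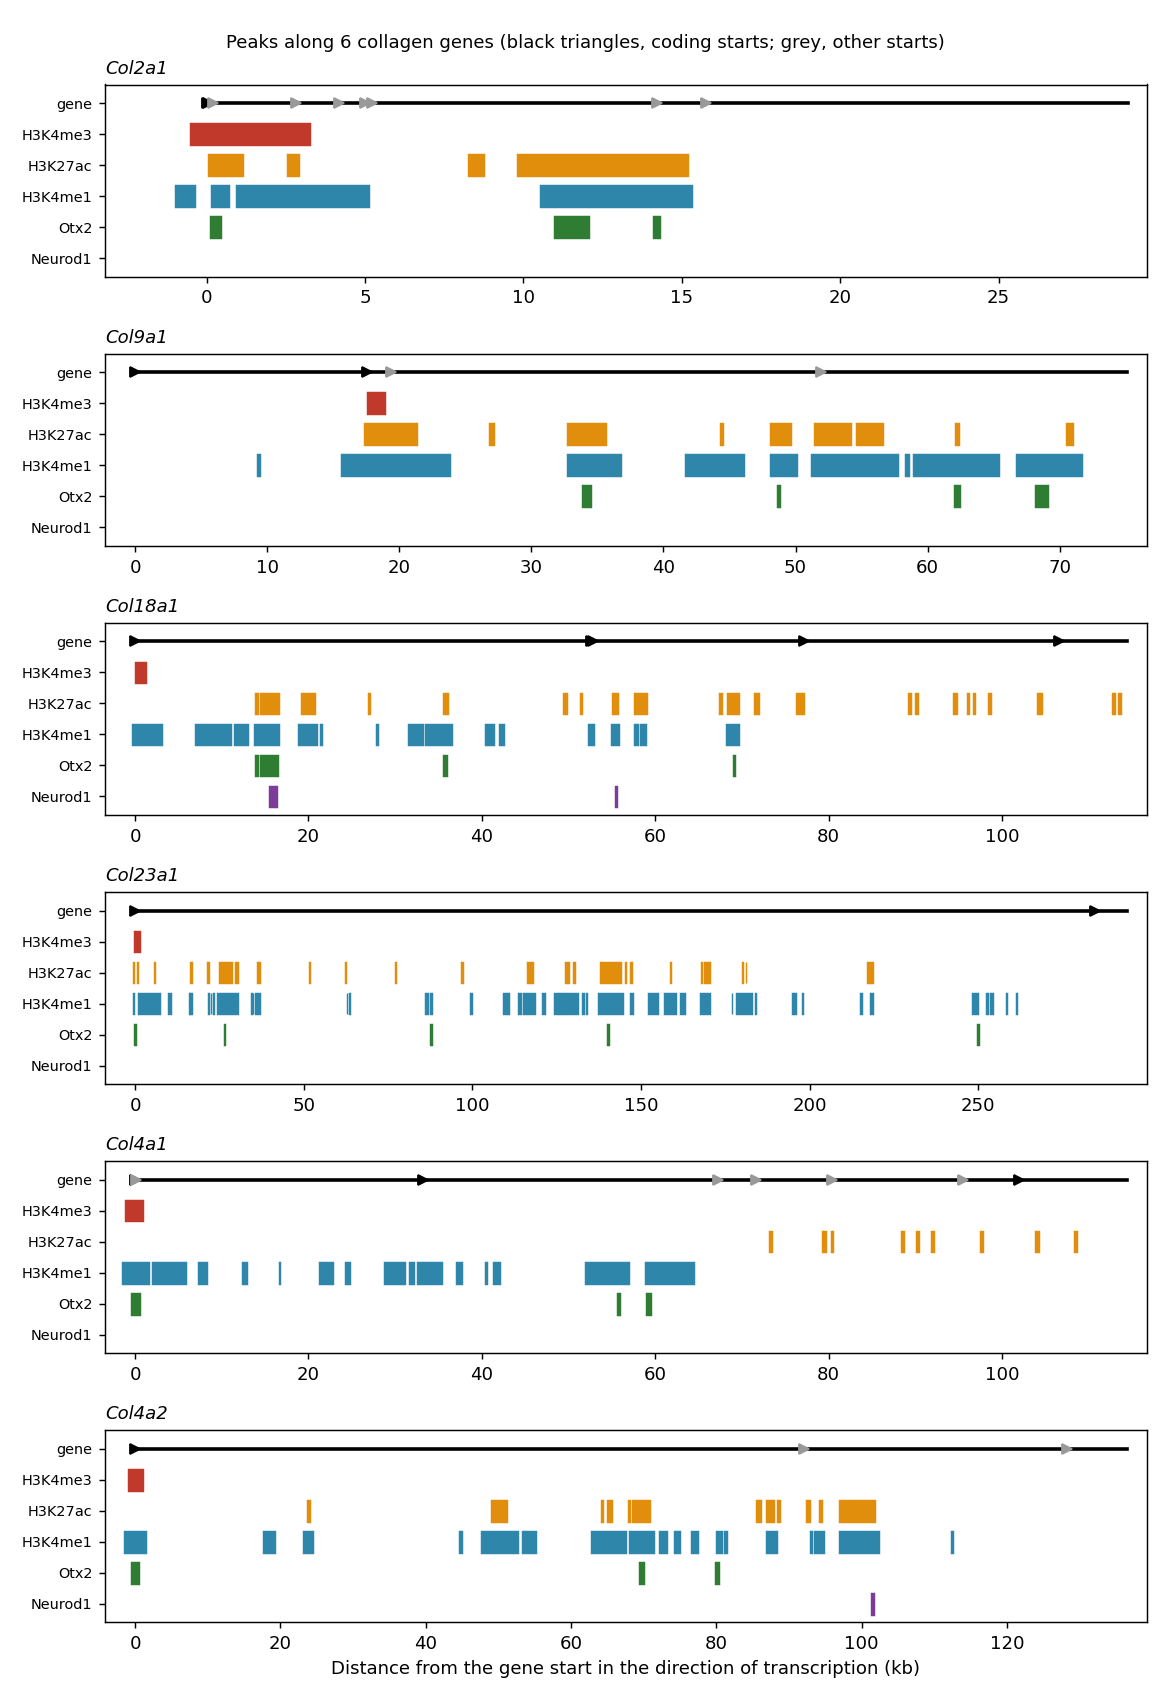
Peaks of the 5 targets are drawn to scale along *Col2a1*, *Col9a1*, *Col18a1*, *Col23a1*, *Col4a1* and *Col4a2*, with distance in kb from the gene start in the direction of transcription, the gene as a black line, coding starts as black triangles and other starts as grey ones. In *Col9a1* the H3K4me3 peak lies at the internal coding start 17577 bp from the gene start, and in *Col18a1* 21 H3K27ac body peaks run along most of the gene.

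In *Col18a1* (chr10:77052178-77166548, minus strand) H3K27ac peaks ran along the gene, from 14039 to 113670 bp from its start. Among its 5 starts, only the first had H3K4me3. The coding starts 52602 and 52843 bp downstream had H3K4me1 only. The strongest H3K27ac peak of the gene (8.03) overlapped an Otx2 peak of 2067 bp (6.85), whose summit was 15302 bp from the gene start, and Neurod1 peaks of 3.06 and 2.7. In *Col4a2* the Otx2 peak of 6.67 overlapped H3K27ac and H3K4me1, and that of 5.56 overlapped H3K4me1 only. Body H3K27ac peaks numbered 11 in *Col4a2*, with a highest value of 6.8, and 7 in *Col4a1*, with a highest value of 3.23.

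*Col6a3*, a long chain of type VI collagen, had the highest values of both factors among the members, Otx2 at 7.89 and Neurod1 at 9.19, in overlapping peaks of 643 and 602 bp. The summits were in an exon, and no histone peak overlapped either. Besides *Col18a1*, a Neurod1 peak overlapped both Otx2 and a histone peak in *Col16a1* (Neurod1 6.73, Otx2 3.26), *Col13a1* (5.79 and 2.72) and *Col17a1* (3.86 and 4.19). *Col26a1* had such an overlap at lower values (2.85 and 2.76). The joint peaks of *Col16a1* and *Col13a1* overlapped H3K4me1 without H3K27ac.

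The bases around 3 of these summits are printed to show a *Col18a1* site with strong Otx2, the *Col6a3* site with the highest values, and a co-occupied site, in *Col13a1*, that holds a motif match, which the stronger co-occupied site of *Col16a1* does not. Each is 300 bases of GRCm38, plus strand, centred on the summit of Otx2 in *Col18a1* and of Neurod1 in *Col6a3* and *Col13a1*. Capitals mark a match to the Otx2-type motif TAATCC, written GGATTA on the other strand, at -135 bp from the *Col18a1* summit, and a match to the Neurod1-type E-box CAGATG, written CATCTG on the other strand, at 131 bp from the *Col13a1* summit. In *Col6a3*, which has neither, capitals mark the unit GGCTG.
*Col18a1*, intron, chr10:77151096-77151395: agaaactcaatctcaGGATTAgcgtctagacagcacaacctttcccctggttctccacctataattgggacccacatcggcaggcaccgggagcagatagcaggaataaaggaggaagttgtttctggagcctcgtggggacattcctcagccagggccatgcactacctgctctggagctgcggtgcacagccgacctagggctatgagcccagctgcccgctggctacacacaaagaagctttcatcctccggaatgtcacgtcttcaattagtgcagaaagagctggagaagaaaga
*Col6a3*, exon, chr1:90775564-90775863: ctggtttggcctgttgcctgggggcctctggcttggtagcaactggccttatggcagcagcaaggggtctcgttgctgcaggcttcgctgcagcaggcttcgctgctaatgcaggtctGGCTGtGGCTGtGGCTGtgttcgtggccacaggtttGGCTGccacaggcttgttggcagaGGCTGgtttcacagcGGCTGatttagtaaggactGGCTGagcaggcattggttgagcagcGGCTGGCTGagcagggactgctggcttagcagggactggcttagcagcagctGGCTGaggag
*Col13a1*, intron, chr10:61965461-61965760: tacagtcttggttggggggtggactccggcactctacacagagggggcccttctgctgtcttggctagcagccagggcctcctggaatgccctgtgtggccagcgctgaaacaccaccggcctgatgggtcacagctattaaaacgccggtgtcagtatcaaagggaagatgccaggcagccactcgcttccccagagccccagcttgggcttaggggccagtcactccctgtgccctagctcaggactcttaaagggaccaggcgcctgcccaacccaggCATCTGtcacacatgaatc

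GGCTG, a unit chosen after the sequence had been seen and searched on this strand only, overlapping matches included, occurred 10 times in the *Col6a3* window, beside a median of 1 over the 4698 autosomal Neurod1 summits. Of those windows 1 (0.0213%), that of *Col6a3* itself, held as many. Over all member peaks, TAATCC on either strand was within the 300 bases at the summit of 11 of 48 Otx2 peaks (22.9%, beside 18.2% of 28550 autosomal Otx2 peaks). CAGATG was there in 4 of 10 Neurod1 peaks (beside 52.2% of 4698). A match of 6 letters is a description of the window and not a shown binding site.

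Genes that act on collagen chains were counted from fixed lists. Of 31 genes for collagen modification, folding, secretion and cross-linking, 21 (67.7%, beside 57.1% of all genes) had H3K4me3 at a start. H3K4me1 was at 26 (83.9%, beside 64.8%) and Otx2 at 16 (51.6%, beside 52.2%). H3K27ac was at 5 (16.1%, beside 23.1%) and Neurod1 at 5 (16.1%, beside 6.00%). Those with H3K4me3 included the lysyl hydroxylases *Plod1*, *Plod2* and *Plod3*, the prolyl hydroxylase subunits *P4ha1*, *P4ha2* and *P4hb*, and *Serpinh1*, the collagen chaperone, and *Loxl3*, a lysyl oxidase. Those without included the prolyl hydroxylase subunit *P4ha3* and the lysyl oxidases *Lox*, *Loxl1*, *Loxl2* and *Loxl4*, which cross-link fibrils outside the cell, so both enzyme families held members with and without the mark. Of 9 collagen receptor genes, *Itgb1* and *Ddr1* had H3K4me3 (22.2%, beside 57.1% of all genes). The share with H3K4me3 was thus 67.7% for the maturation genes and 35.7% for the chains, on either side of the 57.1% of all genes.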

How the data were processed

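Nuclei of P2 mouse retina were assayed by CUT&RUN in 20 libraries, of 36 in the series. The authors trimmed reads with cutadapt 3.5 and Trim Galore 0.6.4, aligned them to GRCm38 with Bowtie2, filtered with SAMtools 1.12, removed duplicates with UMI-tools, merged technical replicates, removed blacklisted regions and called peaks with macs2 over all libraries of a target against IgG at a q-value of 0.05. Versions are those in the submitters' processing notes, which also name deepTools 3.5.1. The deposited fold enrichment (a ratio over IgG) and the deposited −log10 q-value of each peak were used unchanged.

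GENCODE M21 gave genes, starts, introns and exons. A peak was at a TSS if at least 1 bp of it lay within 1 kb of any annotated start, and in the body if it overlapped the gene and no such window. Positions count from 1. Intervals were handled in Python 3.11.15 with numpy 2.4.6 and pandas 2.3.3, plots used matplotlib 3.10.9, and the overlap code was tested on simulated data against bedtools 2.31.1 with 0 differences. Motifs and CpG were counted on the GRCm38 genome.

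Genes named with values are members with H3K4me3 at a TSS, members with Otx2 or Neurod1, the 5 densest in H3K27ac and in H3K4me1 body peaks, *Col2a1*, *Col9a1*, *Col18a1* and *Col4a1* to *Col4a4*. Other members named with values, and the printed sequences, were chosen after their values were seen. The members and gene lists were chosen with earlier results of these data known. Counts of members were set beside the share of all genes, with no test. The alternatives were a −log10 q of at least 5, an overlap of at least 250 bp, a window of 500 bp and others named in the closing section. The 13LGS lists were not used here.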

Additional observations from a re-analysis of the deposited data

How the results depend on the processing

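Of 50 values recomputed for the 42 collagen genes under other settings, 43 stayed within 1.5 times the reported count, and 48 kept members on the same side of the share of all genes. With peaks of a −log10 q of at least 5, members with a peak at a TSS fell to 5 for H3K27ac, 1 for Otx2 (2.38%, beside 43.0% of all genes) and 3 for H3K4me3 and H3K27ac together (7.14%, beside 11.7%), and members with a body peak fell to 0 for H3K4me3 (beside 3.56%) and 4 for Neurod1 (9.52%, beside 4.89%). With the gene start in place of every annotated start, H3K27ac was at 6 members and H3K4me3 with H3K27ac at 3 (7.14%, beside 14.6%). For H3K27ac at a TSS these 2 settings put the members below all genes, at 11.9% beside 12.8% and at 14.3% beside 16.0%. Fewer peaks or starts were counted under them, and why members and all genes moved by different amounts was not tested. Taking CpG ratios at marked starts only, in place of all starts of a marked gene, was chosen after seeing the data and left the median of members with H3K4me3 at 0.737. A shared length of at least 250 bp, the peak summit inside the window and a window of 500 bp moved no count by over 1.5 times. No paired analysis was possible because each list pools all libraries of a target, and for the same reason no replicate could be left out. Read depth is unknown, so a missing peak may be one that was too weak to be called.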
